A study of Homo sapiens with 3 samples.

Results

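Cells meet peroxides, quinones and other electrophiles with a shared set of detoxifying enzymes, many of which are switched on by the transcription factor NRF2. The expression of 43 genes of the NRF2 pathway and of the antioxidant enzymes was described here in 2 human lung epithelial cell lines. The genes were taken from a fixed list and looked up by symbol, out of 18856 genes listed in at least 1 library. The list holds regulators of NRF2, glutathione enzymes, thioredoxin and peroxiredoxins, enzymes and pumps that handle quinones, carbonyls and conjugates, superoxide dismutases with catalase, and further genes linked to NRF2. All 43 were listed in at least 1 library, 42 were listed in all 3 libraries, and 40 had at least 10 reads in each.

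Used here were 3 libraries, each from 10 pg of polyA+ mRNA and each the only library of its kind among them. HBE is a line of human bronchial epithelial cells, and A549 is a lung adenocarcinoma line known to carry a mutated KEAP1, the gene for the protein that holds NRF2 down. LIEA, a low-input method that ligates adapters directly to fragmented mRNA for Ion Torrent sequencing, was applied to HBE and to A549. Smart-seq2, which copies whole mRNAs by template switching before Illumina sequencing, was applied to HBE only. No treatment was labelled for any group. Differences of cell line and of culture therefore cannot be told apart. Without a second library per condition there is no replicate check and no test between cell lines. The bars and intervals given are exact 95% intervals from read numbers, which cover counting error only.

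The values rest on 4605855 reads in the HBE LIEA library, 4154060 in the A549 library and 9845150 in the Smart-seq2 library. All 6 epithelial marker genes were listed in every library, with sums of 2387 rpkM in LIEA of HBE, 4243 by Smart-seq2 and 10561 in A549. Between the LIEA libraries, KRT7, KRT8 and KRT18 were higher in A549, EPCAM and CDH1 were lower and KRT19 was within 2-fold. Of 3 endothelial markers, CDH5 was at 10.8 rpkM in LIEA of HBE and was not listed in A549. The 4 airway basal markers summed to 1686 rpkM in LIEA of HBE, 6125 in Smart-seq2 of HBE and 8.28 in LIEA of A549, where 3 of the 4 were listed. Of 8 alveolar type II markers, 3, 4 and 5 were listed in the same order of libraries, with sums of 3.96, 2.40 and 16.9 rpkM, and SFTPA1, SFTPA2 and SFTPC were listed in none. In A549 the alveolar sum was mostly ABCA3, at 13.9 rpkM against 2.39 in LIEA of HBE and 0.34 by Smart-seq2. SFTPB was at 1.24 rpkM in LIEA of HBE, 1.36 by Smart-seq2 and 1.31 in A549. In the same order, immune markers summed to 50.1, 55.2 and 54.3 rpkM and fibroblast markers to 6.41, 1.46 and 4.02 rpkM. The basal sum thus differed between the cell lines and also between the methods, while the immune sum was level. Single immune markers differed under that level sum. CD14 was at 8.17 rpkM in LIEA of HBE, 3.20 by Smart-seq2 and 26.3 in A549, and was called higher. CD68, at 35.3, 35.7 and 18.4 rpkM, and LYZ, at 6.59, 16.2 and 9.53 rpkM, were within 2-fold between the LIEA libraries. The part of these markers in the differences below was not tested. In RNA from bulk cultures, fewer cells of a type and less RNA per cell cannot be told apart.

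In unstressed cells, KEAP1 hands NRF2 to a CUL3 ubiquitin ligase, and the protein is degraded as fast as it is made. Electrophiles modify KEAP1, NRF2 accumulates, pairs with a small MAF protein and binds the antioxidant response element in front of its target genes. Much of this control acts on the NRF2 protein, which mRNA levels do not measure.

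The element's core, TGACNNNGC, was searched on both strands of the RefSeq promoter windows of build GRCh38.p14, each reaching from 250 bases before to 50 bases after a start site. A window was given for 33 of the 43 members, and 8 of them (24.2%) held the core, against 16.1% of 27305 genes. Counted per window, the shares were 18% of 50 member windows and 13.3% of 35116 windows. Among members at least 2-fold higher in A549 than in both HBE libraries, 4 of 16 with a window held it, and among the other members 4 of 17 did. No window was given for PRDX1, PRDX6, GSR, GSS, ABCC1, ABCC3, CBR3, MAFK, SOD1 and TRIM16L. The core was therefore held by 4 members in each class, and its presence is a description of letters, not of binding. As examples of where the core lies, 80 bases upstream of 4 members are shown, written 5′ to 3′ on the gene's strand with the match in capitals. In GPX2 (chr14:64942823-64942902, minus strand) the match began 122 bases before the start site. It began 99 bases before the start in TXNRD1 (chr12:104215645-104215724, plus strand). The distance was 34 bases in GCLM (chr1:93909431-93909510, minus strand). In CBR1 (chr21:36069830-36069909, plus strand), shown because its level was within 2-fold between the LIEA libraries, the distance was 159 bases.
GPX2: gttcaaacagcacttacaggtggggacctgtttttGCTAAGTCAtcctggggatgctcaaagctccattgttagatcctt
TXNRD1: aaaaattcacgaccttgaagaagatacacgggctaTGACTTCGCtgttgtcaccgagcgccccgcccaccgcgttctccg
GCLM: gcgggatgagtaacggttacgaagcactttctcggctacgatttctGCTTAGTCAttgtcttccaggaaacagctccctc
CBR1: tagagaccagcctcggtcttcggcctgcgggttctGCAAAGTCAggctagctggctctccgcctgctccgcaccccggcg

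LIEA of A549 was first compared with LIEA of HBE, to ask how the NRF2 programme differs between the cancer line and the bronchial line by the same method. Levels are in rpkM, mapped reads scaled by transcript length and by the library's total, and a gene was called higher or lower where the levels differed by 2-fold or more. A gene entered where its mean over the compared libraries was at least 1 rpkM, and all 43 members entered. Of these, 24 were higher in A549, 3 were lower and 16 lay within 2-fold. Over all 12881 genes that entered, 18.4% were higher and 20.0% were lower. The 3 lower members were PRDX2, PRDX6 and GPX1. The median log2 difference was 1.35 over the 42 members listed in both libraries and -0.16 over all genes listed in both.

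Counting intervals lay wholly past 2-fold for 22 of the higher members and for all 3 lower members; NR0B1, unlisted in HBE, has no interval. Of the 42 members listed in both libraries, 11 were at least 8-fold higher in A549, where 4.01% of the 12310 genes listed in both were. GPX3 and NR0B1 entered only through their level in A549, so these had to differ. PRDX2, at 0.70 rpkM in A549, entered only through its level in HBE, but the filter alone did not force a 2-fold difference for it. With the limit of 1 rpkM required in each LIEA library, a choice made after the data were seen, 22 of 40 members were higher, beside 12.9% of all genes, and 2 were lower, beside 17.0%.

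Smart-seq2 of HBE was then added as a second reading of the bronchial line. A549 lay at least 2-fold above both HBE libraries for 20 of the 43 members, where 13.4% of 12791 genes did. It lay at least 2-fold below both for PRDX2 and PRDX6, where 12.8% of all genes did. The 4 members that were higher against LIEA of HBE but not 2-fold above both were GCLM, TXN, PRDX1 and TRIM16. The plot of levels by library shows every member with its counting interval.

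**Figure D1:**
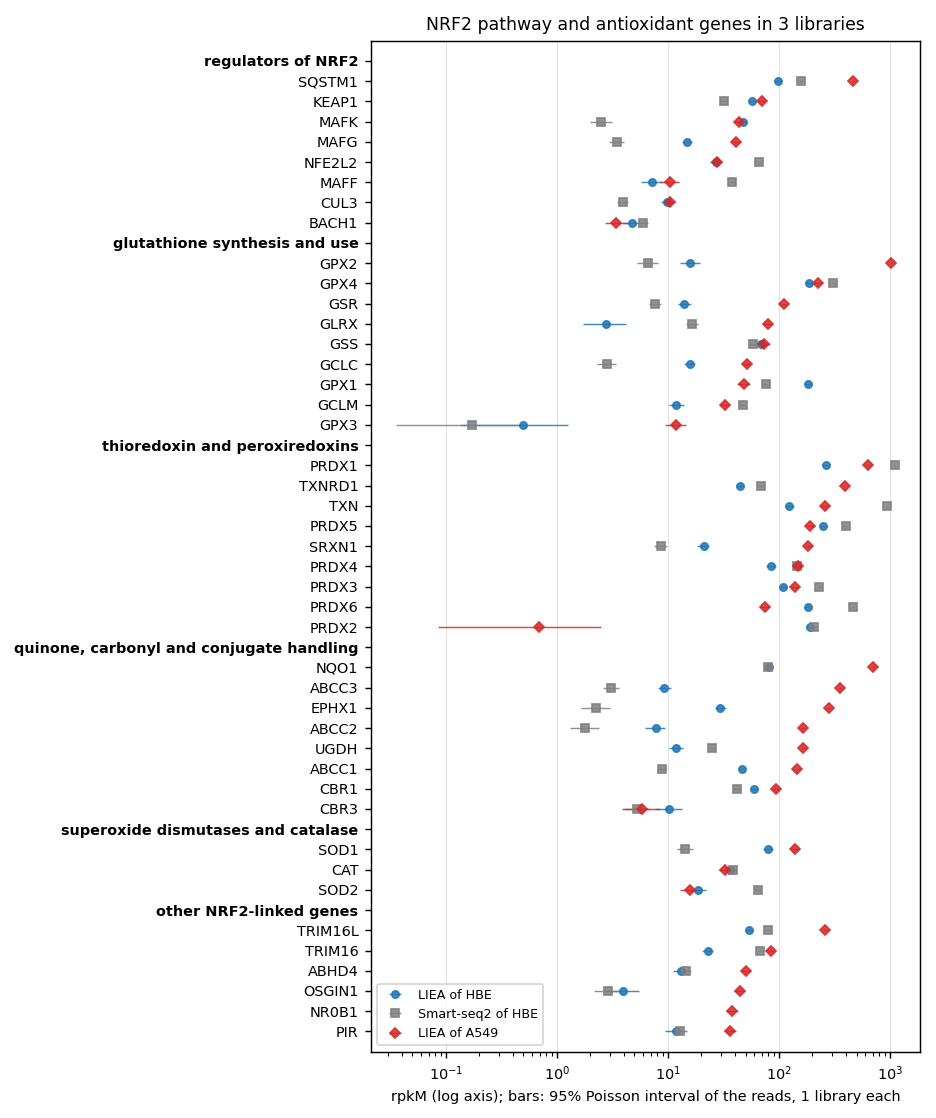
Level of each member in rpkM (log axis) in all 3 libraries, by role, with 95% Poisson intervals of the reads in 1 library each. GPX2 reached 1020 rpkM in A549 against 15.9 and 6.59 in the HBE libraries, PRDX2 stood at 0.70 rpkM in A549, and NR0B1 was listed only in A549.

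The mRNA for NRF2 itself was level between the LIEA libraries. NFE2L2, which encodes NRF2, stood at 26.8 rpkM in LIEA of HBE and 27.4 in LIEA of A549, with 65.8 in Smart-seq2 of HBE. Its log2 difference between the LIEA libraries was 0.03 (-0.19 to 0.25). KEAP1 stood at 57.1 rpkM in LIEA of HBE, 70.3 in A549 and 31.7 in Smart-seq2 of HBE, so A549 was within 2-fold of LIEA of HBE and more than 2-fold above Smart-seq2. CUL3, the scaffold of the ligase that KEAP1 serves, was at 9.78, 10.4 and 3.90 rpkM in the same order. The levels of both therefore moved more between the methods than between the cell lines.

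The repressor and the MAF partners were mixed. BACH1, which competes with NRF2 at the same elements, was low throughout, at 4.74 rpkM in LIEA of HBE, 3.42 in A549 and 5.92 in Smart-seq2. MAFG, a small MAF partner, was at 14.8 rpkM in LIEA of HBE, 41.2 in A549 and 3.47 in Smart-seq2, a log2 difference of 1.48 (1.29 to 1.66) between the LIEA libraries. The other partners were MAFK, at 47.6, 43.5 and 2.52 rpkM, and MAFF, at 7.13, 10.4 and 37.8 rpkM. MAFG was thus the only one of the 3 at least 2-fold above both HBE libraries, while MAFK and MAFF were within 2-fold between the LIEA libraries and far apart between the methods. SQSTM1, the autophagy receptor p62 that binds KEAP1, was at 98.2 rpkM in LIEA of HBE, at 158 by Smart-seq2 and at 467 in A549. That is a log2 difference of 2.25 (2.16 to 2.34) between the LIEA libraries. In this group, 2 of 8 genes were higher, beside 18.4% of all genes, and the median log2 difference was 0.20.

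Glutathione enzymes were mostly higher in A549, with 6 of 9 higher, 1 lower and a median log2 difference of 1.72. Of all genes, 18.4% were higher and 20.0% were lower. GPX2, a glutathione peroxidase best known from the gut epithelium (chr14:65405870-65409464, minus strand, hg19), was at 15.9 rpkM in LIEA of HBE, 6.59 by Smart-seq2 and 1020 in A549. It was 64.0-fold higher in A549 by LIEA, with a log2 interval of 5.71 to 6.31, and 154 of the 12881 genes had a higher difference. It ranked 60 among all genes in A549 by rpkM and 4460 in LIEA of HBE. GPX3, the secreted peroxidase, was at 0.49 rpkM from 4 reads in LIEA of HBE, 0.17 from 3 reads in Smart-seq2 and 11.8 from 86 reads in A549, a difference of 4.58 on the log2 scale with a wide interval of 3.17 to 6.48. The ubiquitous peroxidase GPX1 went the other way, with 184 rpkM in LIEA of HBE, 76.1 by Smart-seq2 and 48.2 in A549, so it was called lower against LIEA of HBE (-1.93, -2.14 to -1.73) but it was less than 2-fold below Smart-seq2. Its transcript was 96.7% identical over 612 bases to that of the pseudogene GPX1P1, so some of its reads are uncertain. Members of this enzyme family therefore stood on both sides, and GPX4, which reduces lipid peroxides in membranes, stayed within 2-fold at 188, 309 and 223 rpkM in the same order.

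The mRNAs of enzymes that reduce oxidised glutathione and mixed disulphides were also higher in A549. GSR, glutathione reductase, was at 14.1 rpkM in LIEA of HBE, 7.68 by Smart-seq2 and 111 in A549 (2.98, 2.76 to 3.19). GLRX, the glutaredoxin that frees proteins from bound glutathione, was at 2.77, 16.6 and 79.4 rpkM in that order, which was 28.7-fold higher in A549 by LIEA and more than 2-fold above Smart-seq2. Glutathione is made in 2 steps, and the first and limiting one is carried out by a catalytic and a modifier subunit. GCLC, the catalytic subunit, was at 15.7 rpkM in LIEA of HBE, 2.82 by Smart-seq2 and 51.5 in A549, a log2 difference of 1.72 (1.52 to 1.92). GCLM, the modifier subunit, was at 11.9, 47.3 and 32.4 rpkM, so A549 was 2.72-fold above LIEA of HBE yet below Smart-seq2 of HBE. The enzyme of the last step, GSS, was at 69.0, 58.0 and 73.7 rpkM and within 2-fold in every pair of libraries.

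In the thioredoxin system, A549 was higher for the enzymes that regenerate the others and lower for some of the peroxiredoxins. TXNRD1, thioredoxin reductase, was at 44.3 rpkM in LIEA of HBE, 68.6 by Smart-seq2 and 390 in A549, a log2 difference of 3.14 (3.04 to 3.24). SRXN1, sulfiredoxin, which rescues over-oxidised peroxiredoxins, was at 20.9, 8.57 and 182 rpkM (3.13, 2.94 to 3.32). Each was at least 2-fold above both HBE libraries, which no other gene of the group was. The substrate of TXNRD1, thioredoxin (TXN), was at 124 rpkM in LIEA of HBE, 942 by Smart-seq2 and 260 in A549, so its direction turned with the method used for HBE. It passed 2-fold narrowly against LIEA of HBE (1.07, 0.91 to 1.23) and not on the TPM scale (0.91).

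PRDX2, a cytosolic peroxiredoxin that removes hydrogen peroxide, was almost missing from A549. The gene lies at chr19:12907634-12912614 on the minus strand in build hg19 (GRCh37). Its level was 191 rpkM in LIEA of HBE and 206 in Smart-seq2, where the methods differed by 0.11 on the log2 scale in favour of Smart-seq2, and 0.70 in A549. With 608 recovered reads against 2, the log2 difference was -8.10 (-11.15 to -6.24), a 274-fold lower level, and 19 of the 12881 genes had a lower difference. The read numbers, and the interval with them, rest on a transcript length that the values fix only up to a whole factor. At the smallest length the number in A549 is 1 read, and at a greater length than the one used it would be more than 2. Among 466 genes at 100 rpkM or more in both HBE libraries, PRDX2 was 1 of 11 that lay under 1 rpkM in A549.

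Among the other peroxiredoxins no such loss was seen. PRDX6, the 1-cysteine peroxiredoxin, was at 181 rpkM in LIEA of HBE, 462 by Smart-seq2 and 74.1 in A549 (-1.29, -1.44 to -1.14), at least 2-fold below both HBE libraries. PRDX1, the closest cytosolic relative of PRDX2, was at 263, 1099 and 633 rpkM, above LIEA of HBE and below Smart-seq2 of HBE. The remaining peroxiredoxins PRDX3, PRDX4 and PRDX5, placed in mitochondria, the endoplasmic reticulum and several compartments, differed by 0.34, 0.81 and -0.37 on the log2 scale, all within 2-fold. The group as a whole had 4 of 9 genes higher and 2 lower, beside 18.4% and 20.0% of all genes.

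**Figure D2:**
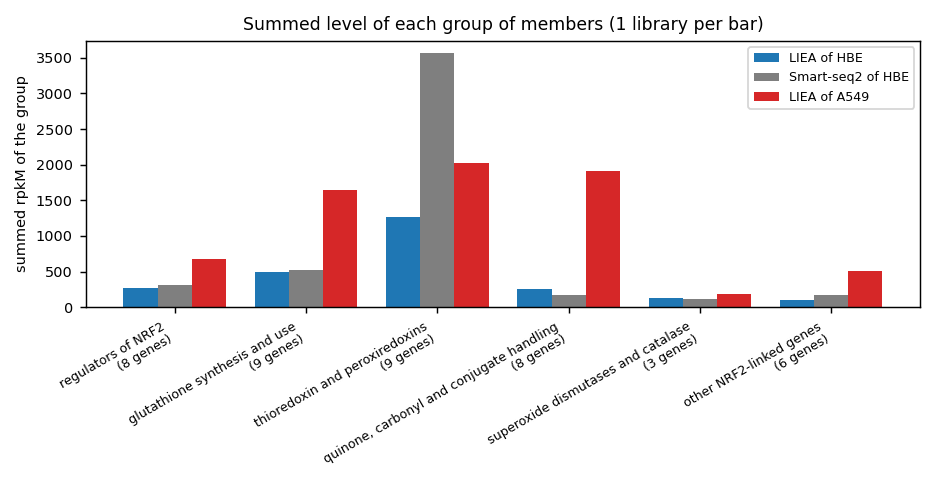
Summed rpkM of each group of members in the HBE LIEA (blue), HBE Smart-seq2 (grey) and A549 LIEA (red) libraries, 1 library per bar and without an error bar. The group for quinones, carbonyls and conjugates summed to 257, 168 and 1908 rpkM, and the thioredoxin group to 1266, 3560 and 2019 rpkM.

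The enzymes and pumps for quinones, carbonyls and conjugates differed most by their sum, as the plot of summed levels shows. They summed to 257 rpkM in LIEA of HBE, 168 by Smart-seq2 and 1908 in A549, which was 7.42-fold and 11.4-fold higher in A549. The thioredoxin group, by contrast, was 1.59-fold higher in A549 than in LIEA of HBE and 0.567 of the sum in Smart-seq2. All 43 members summed to 2530, 4855 and 6952 rpkM.

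NQO1, the quinone reductase often used as a readout of NRF2, was the steadiest case. It stood at 82.0 rpkM in LIEA of HBE, 79.9 by Smart-seq2 and 697 in A549, so the methods were 0.04 apart on the log2 scale and the cell lines 3.09 (2.99 to 3.18). The 3 efflux pumps of the ABCC family, which carry glutathione and glucuronide conjugates out of the cell, were all at least 2-fold above both HBE libraries. ABCC3 was at 9.25 rpkM in LIEA of HBE, 3.09 by Smart-seq2 and 355 in A549, a log2 difference of 5.26 (5.07 to 5.46). ABCC2 was at 7.73, 1.79 and 165 rpkM in the same order (4.42, 4.12 to 4.73). The pump with the highest level in LIEA of HBE, ABCC1, differed least of the 3, with 46.7, 8.88 and 146 rpkM and a log2 difference of 1.65 (1.56 to 1.74).

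UGDH, which makes the UDP-glucuronate that glucuronide conjugates are built from, was at 11.9 rpkM in LIEA of HBE, 24.96 by Smart-seq2 and 164 in A549, a 13.8-fold difference by LIEA. EPHX1, the microsomal epoxide hydrolase, was at 29.7, 2.26 and 279 rpkM, with a log2 difference of 3.23 (3.05 to 3.42) by LIEA. Since LIEA and Smart-seq2 of the same HBE RNA differed by 3.72 for EPHX1, the size of its difference between lines depends on which HBE library is used, but its direction did not. The carbonyl reductases stayed within 2-fold by LIEA. CBR1 was at 59.7, 41.6 and 94.5 rpkM and CBR3 at 10.2, 5.30 and 5.85 rpkM. In this group 6 of 8 genes were higher and none was lower, beside 18.4% and 20.0% of all genes. The median log2 difference was 3.16.

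**Figure D3:**
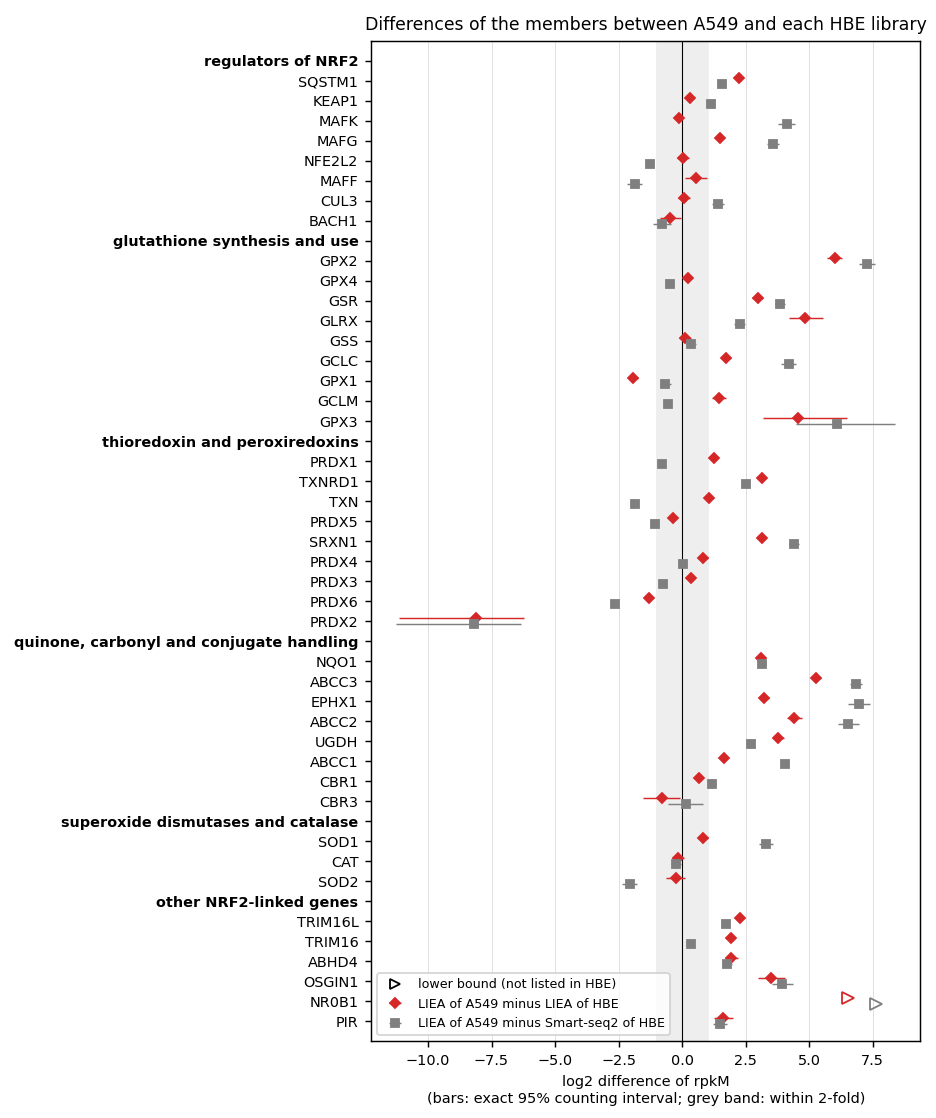
Log2 difference of rpkM between LIEA of A549 and LIEA of HBE (red) and between the A549 library and Smart-seq2 of HBE (grey), with exact 95% counting intervals and a grey band for within 2-fold. Arrowheads mark lower bounds for NR0B1, and 7 members (GCLM, TXN, PRDX1, PRDX3, GPX4, NFE2L2 and MAFF) stood above 0 in red and below 0 in grey, while CBR3 and MAFK did the opposite. Both intervals were clear of 0 for 6 of the 7, all but NFE2L2, and for CBR3 and MAFK an interval held 0.

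The enzymes of superoxide and bulk peroxide removal did not pass 2-fold between the LIEA libraries. SOD1, the cytosolic superoxide dismutase, was at 79.2 rpkM in LIEA of HBE, 14.3 by Smart-seq2 and 140 in A549 (0.82, 0.63 to 1.02). SOD2, the mitochondrial form, was at 18.7, 65.1 and 15.7 rpkM in the same order. Catalase, encoded by CAT, was at 36.2, 38.4 and 32.4 rpkM, so all 3 libraries were close. None of these 3 genes was called in either direction between the LIEA libraries, and SOD1 and SOD2 stood further apart between the methods. Against Smart-seq2 of HBE, A549 was 9.78-fold higher for SOD1 and 4.14-fold lower for SOD2, with CAT within 2-fold.

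All 6 further genes linked to NRF2 were higher in A549 than in LIEA of HBE, beside 18.4% of all genes, though NR0B1 had to differ. At least 2-fold above both HBE libraries were 5 of the 6, all but TRIM16, beside 13.4% of all genes. OSGIN1, an inhibitor of growth induced by oxidative stress, was at 3.92 rpkM in LIEA of HBE, 2.88 by Smart-seq2 and 44.2 in A549 (3.50, 2.99 to 4.04). ABHD4, a lipid hydrolase, was at 13.1, 14.6 and 50.2 rpkM, and PIR, an iron-binding nuclear protein, at 11.8, 12.9 and 36.4 rpkM. For both of these the HBE libraries differed by less than 0.2 on the log2 scale.

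NR0B1, an orphan nuclear receptor also called DAX1, was listed in A549 alone, at 37.8 rpkM from 249 reads. Set against 3 reads in each HBE library, the limit taken here for a count of 0, it was at least 92.0-fold higher than in LIEA of HBE and at least 197-fold higher than in Smart-seq2. TRIM16, a ubiquitin ligase, was at 22.8 rpkM in LIEA of HBE, 67.6 by Smart-seq2 and 85.6 in A549, and its relative TRIM16L at 53.6, 79.2 and 260 rpkM. Transcripts of TRIM16 and TRIM16L were 98.7% identical over 1982 bases, so reads may be split between them and each level is uncertain.

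**Figure D4:**
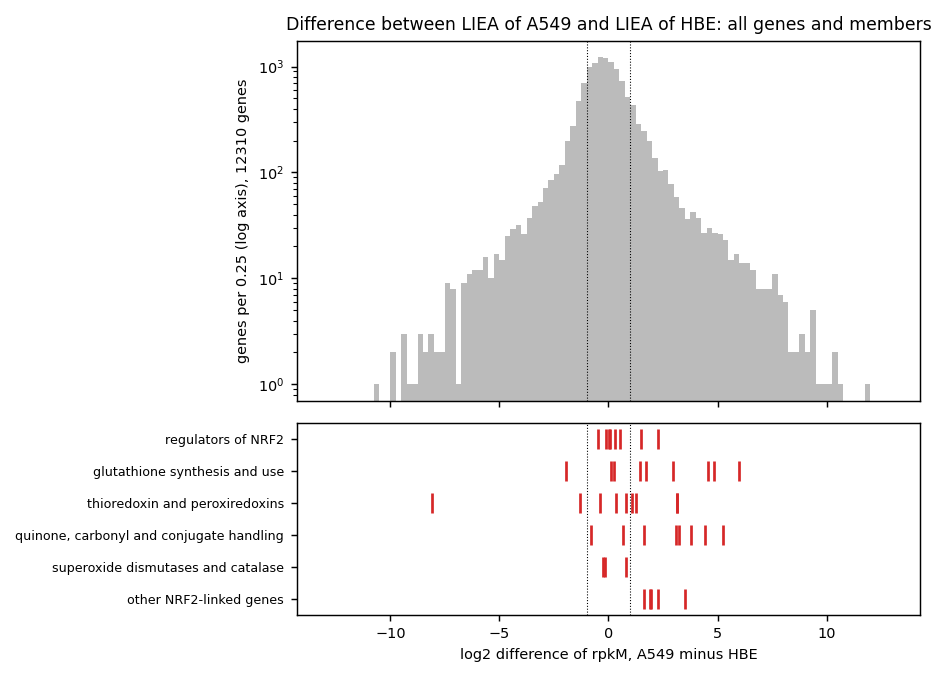
Log2 difference of rpkM between LIEA of A549 and LIEA of HBE for all 12310 genes listed in both (upper, genes per bin on a log axis) and for the members by role (lower, 1 tick per gene). Dotted lines mark 2-fold, and 24 members including NR0B1, which has no tick, were higher while 3 were lower.

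The distribution of differences shows where the groups lay among all genes. The medians were 3.16 for the quinone, carbonyl and conjugate group, 1.94 for the 5 further NRF2-linked genes listed in both libraries, 1.72 for the glutathione group, 0.81 for the thioredoxin group, 0.20 for the regulators and -0.16 for the superoxide dismutases with catalase. The last value equals the median of all genes to 2 decimals. Differences centred on that median would all be 0.16 higher, which puts MAFK at 0.03 in place of -0.13.

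The method check set LIEA against Smart-seq2 of the same HBE RNA. Of 41 members that entered, 12 were at least 2-fold higher in LIEA, 11 at least 2-fold lower and 18 within 2-fold, beside 28.4% higher and 20.9% lower among 12119 genes. The members' median was -0.11. MAFK and EPHX1 stood furthest toward LIEA, with log2 differences of 4.24 and 3.72. TXN stood furthest toward Smart-seq2, at -2.93, ahead of GLRX at -2.58 and MAFF at -2.40. Library chemistry and sequencer changed together, so their parts cannot be told apart. For NQO1, CAT, PRDX2, PIR and ABHD4 the methods differed by less than 0.2 on the log2 scale.

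Genes of the pathway outside the 43 were taken from 3 further lists, chosen with earlier results of these data known. Of 20 other NRF2 targets, 19 entered. Of these, 17 were higher in A549 than in LIEA of HBE and 0 were lower, beside 18.4% and 20.0% of all genes. In A549, 14 were at least 2-fold above both HBE libraries, beside 13.4% of all genes. The median log2 difference was 4.10 over 17 genes. GSTA4 and HGD, unlisted in LIEA of HBE, entered only through their level in A549, so these had to differ. AKR1B10 was just under 1 rpkM in LIEA of HBE, so the filter alone did not force a 2-fold difference for it. AKR1B10, an aldo-keto reductase, was at 0.95 rpkM in LIEA of HBE, 1.46 by Smart-seq2 and 3469 in A549, a log2 difference of 11.83 (10.79 to 13.15). ALDH3A1, an aldehyde dehydrogenase, was at 8.45, 5.64 and 1691 rpkM (7.65). HMOX1, the haem oxygenase whose gene is also held down by BACH1, was at 1.91, 9.90 and 163 rpkM (6.42). AKR1C3, at 20.9, 32.1 and 2189 rpkM (6.71), has close paralogs that were also listed, so its reads are uncertain. HGD, which breaks down homogentisate, was listed in A549 alone, at 40.5 rpkM.

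The machinery that degrades or partners NRF2 was mostly within 2-fold between the LIEA libraries. Of 18 such genes 17 entered, 0 were higher, 2 were lower and 15 were within 2-fold, beside 18.4% higher and 20.0% lower of all genes. Those lower were NFE2L3, a factor related to NRF2 (-1.35), and PALB2, which binds KEAP1 (-1.04). NFE2L3 was at 5.44 rpkM in LIEA of HBE, 0.60 by Smart-seq2 and 2.14 in A549, so only PALB2 was 2-fold below both HBE libraries. Between the methods, 7 of 17 genes were at least 2-fold higher in LIEA of HBE and 2 were at least 2-fold lower, beside 28.4% and 20.9% of all genes. Of 20 other redox genes 18 entered, of which 2 were higher, 3 were lower and 13 were within 2-fold, beside the same 18.4% and 20.0% of all genes. TXNIP, the inhibitor of thioredoxin, was at 42.8 rpkM in LIEA of HBE, 35.0 by Smart-seq2 and 0.73 in A549, which is -5.86 on the log2 scale, and it entered only through its level in HBE. The others past 2-fold were MSRB3 (2.65) and MSRB2 (1.06), which repair oxidised methionine, NXN (-2.21), a relative of thioredoxin, and TXNRD3 (-1.74), a thioredoxin reductase. NXN was at 43.5 rpkM in LIEA of HBE, 9.51 by Smart-seq2 and 9.39 in A549, so it was level with Smart-seq2 of HBE. Against both HBE libraries, 2 genes of this list were higher and 2 were lower.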

How the data were processed

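The values used here come from polyA+ mRNA of HBE and A549, with 1 library per condition. The paper also reports a repeat of LIEA on HBE as a biological replicate, LIEA from counted HBE cells and earlier bulk mRNA-seq of both lines. Those data were not used here. The authors mapped reads with FANSe2 to RefSeq RNA, merged splice variants and deposited log2 rpkM per gene; the labels name build hg19. Per the study's methods, genes with at least 10 reads count as quantified. The deposited log2 values were turned back into rpkM here. Reads and totals were recovered from the steps between values, whole for 18853 of 18856 genes, and in simulated data 94.1% of 18266 genes came back exact. Recovered reads summed to at least 97.5% of each total. In each library 4 rows whose date-like names occurred more than once were left out, as were 1589 blank rows in the Smart-seq2 table. Positions are from GENCODE 44 on GRCh37. Likeness between transcripts was searched with blastn 2.17.0 at 95% identity or more over at least 200 bases. The fold limit was 2, the filter a mean of 1 rpkM and the floor 3 reads. Genes named outside the members are the 5 largest differences of each list past 2-fold. Members and lists were chosen with earlier results of these data known. Intervals are Poisson or conditional binomial, computed with scipy 1.17.1. Alternatives were other scalings, filters, folds, a pseudocount of 1 and Smart-seq2 as the reference.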

Additional observations from a re-analysis of the deposited data

How the results depend on the processing

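No paired analysis was possible because the data used here hold a single library of every kind. For the same reason no library could be left out and no fold has a replicate check. Under the alternatives, 20 to 27 members were higher in A549 than in HBE, beside 12.1% to 32.7% of all genes, and 17 to 22 were above both HBE libraries by the fold used, beside 7.36% to 18.4%, while the median log2 difference stayed between 1.20 and 1.51. With Smart-seq2 as the HBE reference, 7 members were lower in A549 in place of 3, beside 28.4% of all genes in place of 20.0%, and 3 members called by LIEA changed sign, namely GCLM (-0.54), TXN (-1.86) and PRDX1 (-0.80). A limit of 3-fold left 1 member below both HBE libraries in place of 2, as did 1 rpkM required in each library, a setting chosen after the data were seen, which by its construction leaves PRDX2 out. Of the members within 2-fold by LIEA, PRDX3, GPX4 and MAFF also changed sign, with both counting intervals clear of 0. NFE2L2, CBR3 and MAFK changed sign too, but each had an interval that held 0. The cause was not tested. The depth limits GPX3 and NR0B1 in HBE and PRDX2 in A549, each at 4 reads or fewer.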

Other observations

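Genes next to PRDX2 on chromosome 19 were read for comparison, after its level had been seen. HOOK2, whose annotated span on the same strand contains PRDX2, was at 32.6 rpkM in LIEA of HBE, 20.0 in Smart-seq2 of HBE and 5.72 in LIEA of A549. JUNB, which lies just before PRDX2 by coordinate, was at 272, 288 and 186 rpkM in the same order. RNASEH2A, the next gene after it that was listed, was at 26.0, 54.5 and 34.1 rpkM. JUNB and RNASEH2A were within 2-fold between the LIEA libraries. MAST1, further along, was at 1.90, 0.50 and 0.73 rpkM, which is -1.37 on the log2 scale between the LIEA libraries. Of the 466 genes at 100 rpkM or more in both HBE libraries, 25 were at least 10-fold lower in A549.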
